A study of Mus musculus with 6 samples.

Results

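The tumor necrosis factor (TNF) superfamily genes were examined in mouse bone cells labelled as osteocytes, with a comparison of libraries labelled cKO against libraries labelled WT. Members were the protein-coding genes with a numbered Tnfsf or Tnfrsf symbol, the numbered Traf genes, and Tnf, Lta, Ltb, Ltbr, Fas, Fasl, Cd40, Cd40lg, Cd27, Cd70, Ngfr and Eda2r, without Tnfsf11, Tnfrsf11a and Tnfrsf11b. This gave 47 of the 56748 genes listed, of which 16 encode ligands, 24 encode receptors and 7 encode TNF receptor-associated factors (TRAFs). Traf3ip1, Traf3ip2 and Traf3ip3 encode proteins that bind TRAFs and were counted with the adapters instead.

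The WT group (3 libraries) came from C57BL/6J mice and the cKO group (3 libraries) from Gsdmd fl/fl; DMP1-Cre mice, in which Cre is driven by the Dmp1 promoter and removes floxed exons of the pore-forming protein gasdermin D. Per the methods of the study, osteocytes were taken from long bones of mice aged 7 weeks. After 7 days in culture, cells of both groups received lipopolysaccharide (LPS) at 10 ng/mL for 3 h and then aluminum hydroxide at 20 µg/mL for 3 h, so every library was stimulated and no effect of the stimulation can be read from the comparison. No source states whether the 3 libraries of a group came from separate animals or cultures. The p-values therefore measure the spread between these libraries, which may be technical.

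TNF superfamily ligands are mostly membrane proteins that act as trimers, on the cell surface or after cleavage by a protease. Their receptors either carry a death domain, which recruits adapters of cell death, or recruit TRAFs, which pass the signal to NF-κB and to MAP kinases. Decoy receptors bind a ligand without passing on its signal. In bone, TNF is known for promoting osteoclast formation, and macrophages stimulated with LPS are a well-known source of it.

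The deposited table held 39566835 to 49734046 counts per library. The floxed gene went against its label: Gsdmd had 13.9 ± 0.339 counts per 1000000 counts of the library (CPM; SD, n = 3) in WT and 22.5 ± 1.33 CPM in the libraries labelled cKO, a log2 fold change of 0.69 (edgeR quasi-likelihood test, adjusted p = 2.27e-06). Whole-gene counts include exons outside the deletion and cells without Cre, and the cause of the higher level in cKO was not tested. Of the 6 osteocyte markers, Sost had 0 counts in every library, Mepe at most 2 and Dmp1 at most 6. Phex had 2 to 22 counts per library, and Fgf23 had 14, 34 and 8 in WT and 6, 0 and 0 in cKO. Pdpn, which other mesenchymal cells also express, was the only one tested, at 234 ± 7.59 CPM in WT and 193 ± 3.57 CPM in cKO (adjusted p = 3.00e-05). The 14 tested of 16 macrophage markers were all higher in the libraries labelled cKO, at a median of 3.16 on the log2 scale and a summed level of 1220 to 1370 CPM in WT against 6450 to 6750 CPM. None of those 14 was at 0. Of the 12 T and NK cell markers, 7 (Cd3e, Cd3d, Cd3g, Cd8a, Klrb1c, Nkg7, Gzma) had 0 counts in all libraries, and so did 1 of the 7 B cell markers, Ms4a1. Others were detected: Trac had 51, 56 and 35 counts in WT and 7, 0 and 0 in cKO (log2 fold change -4.19, adjusted p = 2.01e-04). Lck had 7 to 20 counts per library, and Pax5 had 13, 29 and 8 in WT and 2, 6 and 2 in cKO. The T and NK cell list summed to 1.24 to 1.57 CPM in WT and 0.396 to 0.784 CPM in cKO, and the B cell list to 1.96 to 2.94 and 14.4 to 15.8 CPM. Most of the B cell sum was Blnk, at 1.67 CPM in WT and 14.3 CPM in cKO. The groups also differed in sex-linked genes: Xist had 0 to 4 counts in WT and 44817 to 51216 in cKO, and the Y-linked Ddx3y had 4033 to 5455 and 0. Sex and genotype cannot be told apart here. In such bulk samples, a change in the number of cells of a type and a change in RNA per cell cannot be told apart either, and the part of any of these differences in the results below was not tested.

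Of the 47 members, 35 passed the filter on low counts and were tested, namely 8 ligands, 20 receptors and all 7 TRAFs. At an adjusted p below 0.05, 10 were higher and 12 were lower in the libraries labelled cKO, and 13 were not called. Over all 17146 genes tested, 20.1% were higher and 19.2% were lower. With upper-quartile scaling instead of TMM, these shares were 16.3% and 25%, while 10 members were again higher and 12 lower. With a change of at least 2-fold as well, 7 members were higher, against 6.56% of all genes, and 4 were lower, against 4.64%. In 12 of the 35 all cKO libraries lay above all WT libraries, a pattern of 25.3% of all genes, and in 12 they lay below, a pattern of 23.9%. The median log2 fold change was -0.02 over the tested members and 0.01 over all genes. By class it was 0.30 for ligands, -0.11 for receptors and -0.14 for TRAFs. The members together took 1315 to 1358 CPM in WT and 1202 to 1230 CPM in cKO.

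**Figure D1:**
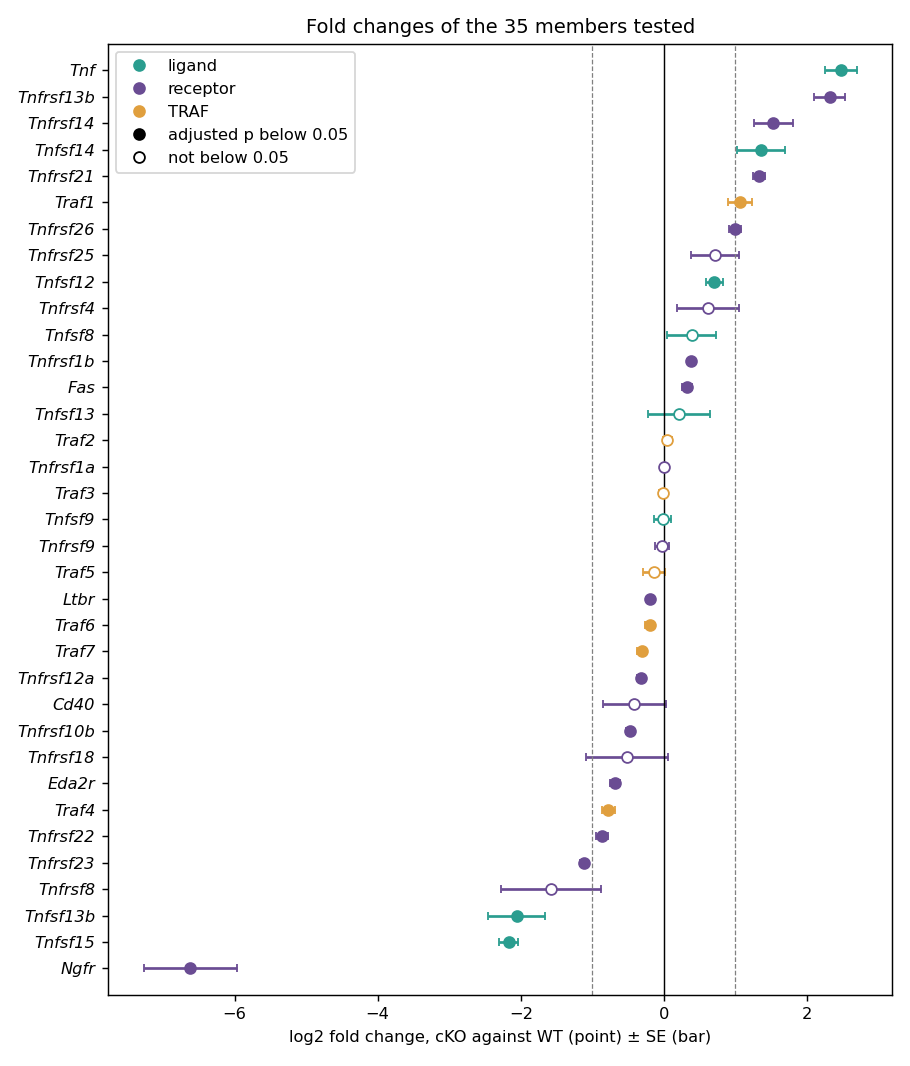
Log2 fold change of cKO against WT on the x axis for each tested member on the y axis, with bars for the SE (n = 3 per group), color for the class and filled points for an adjusted p below 0.05. Dashed lines mark a 2-fold change. Tnf at 2.47 and Ngfr at -6.62 stand at the ends, and 13 members have open points.

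Among the 8 tested ligands, Tnf showed the largest rise, Tnfsf14 and Tnfsf12 also rose, and Tnfsf15 and Tnfsf13b fell. Tnf (chr17:35418357-35420983 in GRCm39, minus strand), the founding cytokine of the family, stood at 0.844, 0.826 and 1.08 CPM in WT and at 4.30, 5.13 and 5.79 CPM in cKO. The lowest cKO library lay well above the highest WT library. The fitted log2 fold change was 2.47 (SE 0.225, adjusted p = 7.50e-08). In WT, Tnf rested on 38 to 42 counts per library.

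Tnfsf14, which encodes LIGHT, a ligand of the lymphotoxin β receptor and of the herpesvirus entry mediator, had 0.489, 0.947 and 0.928 CPM in WT and 1.83, 1.58 and 2.66 CPM in cKO. The groups did not overlap, although each varied widely, and the log2 fold change was 1.36 (SE 0.336, adjusted p = 0.00337). Tnfsf12 encodes TWEAK, a ligand that acts on mesenchymal cells. It had 7.60, 9.55 and 8.97 CPM in WT and 13.3, 16.4 and 12.9 CPM in cKO, without overlap, a log2 fold change of 0.70 (SE 0.121, adjusted p = 1.38e-04). In the GENCODE M39 annotation, 55.3% of the 100-base windows of its transcript also lie in the readthrough gene Tnfsfm13, so its counts could have been split with that gene.

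Tnfsf15 encodes TL1A, a costimulatory ligand that endothelial and myeloid cells are known to make. It had 13.6, 18.0 and 18.9 CPM in WT and 3.90, 3.42 and 3.85 CPM in cKO. All cKO libraries lay within a narrow range far below the WT libraries, and the log2 fold change was -2.17 (SE 0.138, adjusted p = 5.61e-10). Tnfsf13b encodes BAFF, the survival factor of B cells. Its levels were 2.33, 2.30 and 2.88 CPM in WT and 1.14, 0.352 and 0.308 CPM in cKO, where 1 library lay apart with 48 counts against 14 in each of the others. The log2 fold change was -2.06 (SE 0.399, adjusted p = 4.49e-04), and -2.91 without that library, cKO replicate 1.

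Per length, Tnfsf9 and Tnfsf12 were the highest ligands, followed by Tnf. Tnfsf9, the ligand of the costimulatory receptor encoded by Tnfrsf9, had 9.33, 10.6 and 11.0 CPM in WT and 9.60, 11.5 and 9.47 CPM in cKO. The groups overlapped, and the log2 fold change of -0.02 (SE 0.117) was not called (adjusted p = 0.928). Its mean level was 7.95 CPM per kb, against 7.56 for Tnfsf12, 1.83 for Tnf and 1.76 for Tnfsf15. The order of the last pair differed by group: Tnf had 0.560 CPM per kb in WT and 3.10 in cKO, whereas Tnfsf15 had 2.88 and 0.639. Tnfsf8, the ligand of CD30, and Tnfsf13, which encodes APRIL, were low at 0.267 and 0.366 CPM per kb and were not called, with log2 fold changes of 0.39 (adjusted p = 0.410) and 0.22 (adjusted p = 0.741). For Tnfsf13, 57.7% of the 100-base windows also occur in Tnfsfm13 or the opposite-strand lncRNA Tnfsf13os. These had 117 and 161 counts over all libraries, against 154 for Tnfsf13, so its counts could have been split as well.

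The other 8 ligands were at or near the detection limit and were not tested. A level of 3 counts, the limit that a count of 0 allows, was 0.0605 to 0.0773 CPM in these libraries and covers counting error only. Tnfsf10, which encodes the death ligand TRAIL, had 0, 1 and 0 counts in WT and 7, 10 and 6 in cKO. This is a ratio of 24.1 after scaling, with a 95% counting interval of 3.92 to 993. Tnfsf18, which encodes the GITR ligand, had 0, 6 and 5 counts in WT and 14, 0 and 32 in cKO, so the cKO libraries differed among themselves more than the groups did. Lta had 0 to 9 counts per library, Tnfsf4 at most 6 and Ltb 4 counts in 1 library of WT. Cd70 and Fasl had 2 counts each in 1 cKO library, and Cd40lg had 0 throughout. Ltb and Lta lie on either side of Tnf, 3061 and 1158 bases away, and neither passed the filter.

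**Figure D2:**
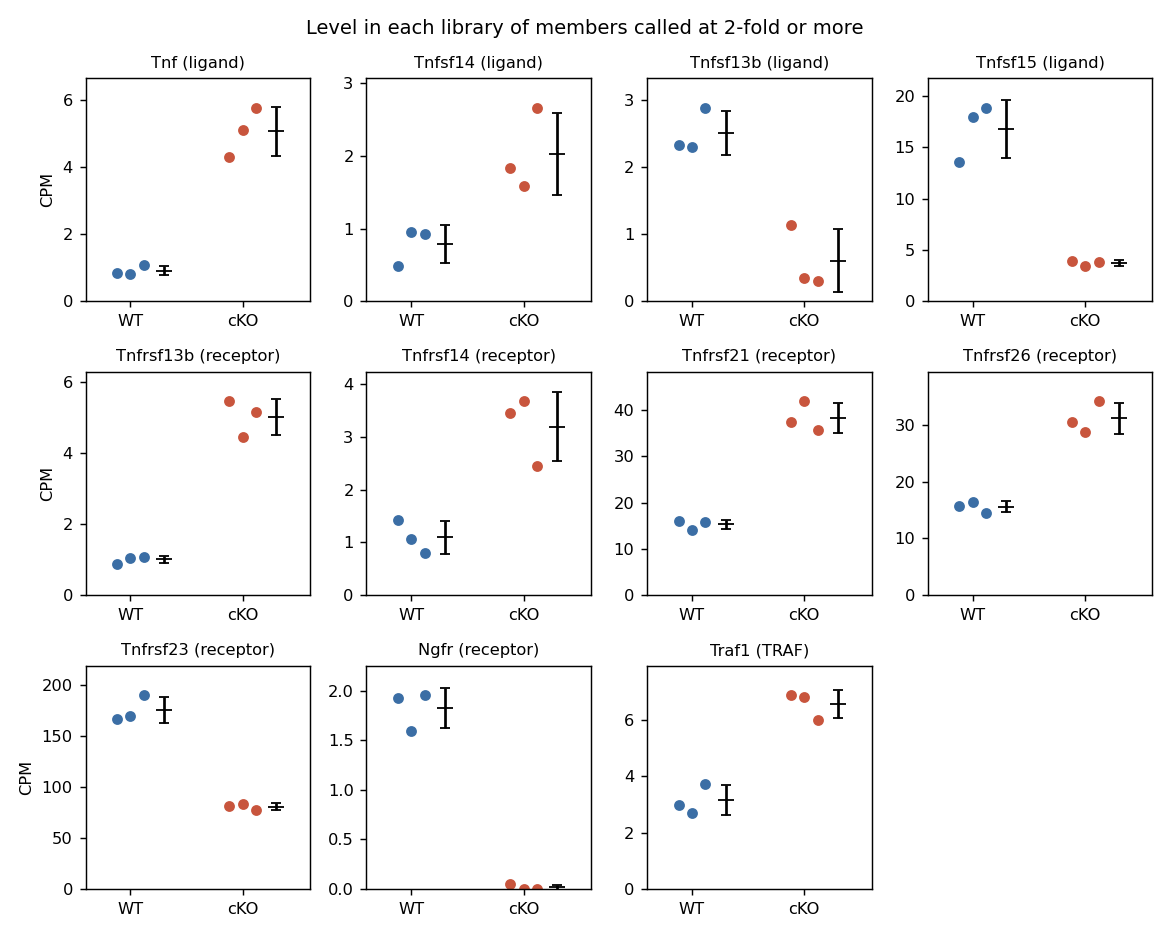
Level in CPM (y axis, from 0) in each WT and cKO library (points, n = 3 per group) of the 11 members called with at least a 2-fold change, with the mean ± SD beside the points. The groups do not overlap in any panel, and the Ngfr points of cKO lie at or near 0.

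Among the receptors, 6 were higher, 7 were lower and 7 were not called. The most abundant receptor by the gene lengths of the deposited table, Tnfrsf1a, did not pass the test. Tnfrsf1a encodes TNF receptor 1, a death domain receptor present on most cells. It had 252, 241 and 236 CPM in WT and 239, 249 and 245 CPM in cKO, with a log2 fold change of 0.01 (SE 0.0408, adjusted p = 0.930). The groups overlapped fully. Tnfrsf1b encodes TNF receptor 2, which lacks a death domain and recruits TRAFs. It had 162, 158 and 164 CPM in WT and 211, 207 and 211 CPM in cKO, a log2 fold change of 0.38 (SE 0.0402, adjusted p = 5.46e-07). Both groups were tight and well apart.

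Within a library, scaling cancels out of the ratio between both TNF receptors. Per length, Tnfrsf1b stood at 0.451 ± 0.0191 of the level of Tnfrsf1a in WT and at 0.583 ± 0.0170 in cKO (SD, n = 3), 1.29 times the WT ratio. An exact two-sided permutation test gave p = 0.1, the smallest that 3 libraries against 3 allow, and this holds for the other ratios below. The pairs of genes set in ratio were picked with their values known. In both groups, the level of Tnfrsf1b exceeded that of Tnf per length by more than an order of magnitude, at 42.3 against 0.560 CPM per kb in WT and 55.0 against 3.10 in cKO.

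Tnfrsf12a encodes Fn14, the receptor of TWEAK. It had 99.5, 102 and 94.5 CPM in WT and 86.7, 76.7 and 74.4 CPM in cKO, a log2 fold change of -0.32 (SE 0.0578, adjusted p = 2.49e-04). The receptor thus fell where its ligand Tnfsf12 rose. The per-length ratio of ligand to receptor was 0.113 ± 0.0132 in WT and 0.230 ± 0.0388 in cKO, without overlap (exact permutation p = 0.1). In GENCODE M39, 67.9% of the 100-base windows of the Tnfrsf12a transcript also occur in transcripts of its neighbor Hcfc1r1, although the deposited table lists no overlap of the genes.

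The receptors of LIGHT moved in opposite directions. Tnfrsf14, which encodes the herpesvirus entry mediator, had 1.42, 1.07 and 0.799 CPM in WT and 3.45, 3.67 and 2.44 CPM in cKO, a log2 fold change of 1.53 (SE 0.274, adjusted p = 2.06e-04). Ltbr encodes the lymphotoxin β receptor. It was more abundant, with 89.0 ± 3.50 CPM in WT and 78.0 ± 2.28 CPM in cKO (SD, n = 3), and fell by 0.19 on the log2 scale (SE 0.0492, adjusted p = 0.00485). Per length, Ltbr exceeded Tnfrsf14 in both groups, at 37.8 against 0.762 CPM per kb in WT and 33.1 against 2.22 in cKO.

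The receptor TACI of BAFF and APRIL, encoded by Tnfrsf13b, showed the largest rise among the 20 tested receptors. It had 0.889, 1.05 and 1.08 CPM in WT and 5.47, 4.45 and 5.15 CPM in cKO, a log2 fold change of 2.32 (SE 0.213, adjusted p = 8.46e-08). Thus TACI was higher where its ligand BAFF was lower. Of the other receptors of these ligands, Tnfrsf13c, which encodes the BAFF receptor, had 2 counts in 1 WT library and 5, 0 and 8 in cKO, and Tnfrsf17, which encodes BCMA, had 0 in all. TACI and BAFF receptor are best known from B cells. Here the B cell marker Ms4a1 was at 0, Cd79a and Cd79b had at most 4 counts per library and Ighm 10 to 31, whereas Blnk, an adapter of B cells that macrophages also use, was the only B cell marker of 7 called, with a log2 fold change of 3.12.

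Tnfrsf21 encodes death receptor 6. It had 15.9, 14.1 and 15.9 CPM in WT and 37.5, 41.9 and 35.6 CPM in cKO, a log2 fold change of 1.33 (SE 0.0810, adjusted p = 3.38e-10). Fas, the receptor of Fas ligand and a classical death receptor, rose less, from 29.4 ± 1.69 to 36.7 ± 0.302 CPM (SD, n = 3), with a log2 fold change of 0.32 (SE 0.0644, adjusted p = 5.71e-04). Tnfrsf10b, which encodes the death receptor of TRAIL, fell from 91.0 ± 0.874 to 65.3 ± 4.71 CPM, a log2 fold change of -0.48 (SE 0.0541, adjusted p = 1.18e-06). So the death domain receptors among the members did not move as one: Tnfrsf21 and Fas rose, Tnfrsf10b and Ngfr (given below) fell and Tnfrsf1a was not called. Tnfrsf25, which encodes the death domain receptor of TL1A, was low. Its libraries separated, with 0.825 ± 0.138 CPM in WT and 1.35 ± 0.311 CPM in cKO, but its log2 fold change of 0.72 (SE 0.337) was not called (adjusted p = 0.106).

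Ngfr, which encodes the low-affinity neurotrophin receptor, a death domain protein of neural crest, nerve and mesenchymal cells, showed the largest change of the 35 tested members. It had 87, 79 and 76 counts in WT and 2, 0 and 0 in cKO. After scaling the WT level was 115 times that of cKO, with a 95% counting interval of 31.6 to 958, and the fitted log2 fold change of -6.62 (SE 0.655, adjusted p = 2.26e-07) depends on the prior count. Without cKO replicate 1, which held the only cKO counts, the fitted value was -9.32. Ngfr was well detected in every WT library and nearly undetected in cKO. The Schwann cell marker Sox10 had 6, 8 and 11 counts in WT and 0 in each cKO library. All 5 Schwann and nerve markers together had 173 to 189 CPM in WT and 84.0 to 92.2 CPM in cKO, 1 of the 3 tested being called lower. That one, Ncam1, made up most of the sum, at 164 CPM in WT and 73.2 CPM in cKO. The 5 smooth muscle and pericyte markers summed to 761 to 911 CPM in WT and 369 to 423 CPM in cKO, 4 of the 5 being called lower. Most of this sum was Acta2, at 761 and 376 CPM. Other mesenchymal lists went in different directions. The osteoblast list summed to 13600 to 15400 CPM in WT and 9080 to 9300 CPM in cKO, with 2 markers called higher and 4 lower. Most of this sum was Spp1 and Col1a1. The chondrocyte list summed to 1960 to 2170 and 2920 to 3110 CPM, with 4 higher and 1 lower. The marrow stromal list summed to 413 to 476 CPM in WT and 1100 to 1120 CPM in cKO, with 2 markers called higher and 1 lower. The fibroblast list summed to 2450 to 2480 and 2410 to 2470 CPM, with 3 higher and 3 lower. The part of any of these cells in the fall of Ngfr was not tested.

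Eda2r encodes the receptor of ectodysplasin A2. It fell from 52.4 ± 5.40 to 32.7 ± 1.51 CPM (SD, n = 3), or -0.68 on the log2 scale (SE 0.0718, adjusted p = 5.01e-07). The gene lies on the X chromosome, and the groups differed in Xist as given above. Tnfrsf19, which encodes TROY, was not tested. It had 13, 5 and 6 counts in WT and 0 in each cKO library, so it was at least 7.63-fold lower against the limit of 3 counts over the group.

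Tnfrsf26, Tnfrsf22 and Tnfrsf23 are neighbors on chromosome 7 (chr7:143161396-143182459, chr7:143188543-143203398 and chr7:143219546-143239609, all on the minus strand), with no other protein-coding gene between them. Tnfrsf22 and Tnfrsf23 encode mouse decoy receptors of TRAIL, and Tnfrsf26 encodes a related receptor. Within this cluster Tnfrsf26 rose and both decoy receptors fell. Tnfrsf26 had 15.8, 16.5 and 14.5 CPM in WT and 30.6, 28.9 and 34.2 CPM in cKO, a log2 fold change of 1.00 (SE 0.0836, adjusted p = 2.45e-08), which lies at the 2-fold limit. Tnfrsf23 had 166, 170 and 190 CPM in WT and 81.4, 83.1 and 77.0 CPM in cKO, a log2 fold change of -1.12 (SE 0.0542, adjusted p = 1.40e-11). By the deposited length of 3962 bases it was the third most abundant receptor in WT, but its canonical transcript has 1476 bases. Tnfrsf22 fell from 23.9 ± 0.580 to 13.1 ± 0.847 CPM (SD, n = 3), or -0.87 on the log2 scale (SE 0.0829, adjusted p = 1.39e-07), just outside the 2-fold limit.

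The direction of each of the 3 genes and its call were the same in all 16 alternative settings. The unequal change also appears in ratios within a library, which no scaling affects. Per length, Tnfrsf26 stood at 0.864, 0.927 and 0.778 of Tnfrsf22 in WT and at 3.12, 3.06 and 3.20 of it in cKO. The cKO mean was 3.66 times the WT mean. Against Tnfrsf23 the ratio was 0.110 ± 0.0140 in WT and 0.480 ± 0.0614 in cKO. Both decoy receptors kept closer to each other, with a ratio of Tnfrsf22 to Tnfrsf23 of 0.128 ± 0.00735 in WT and 0.153 ± 0.0161 in cKO. Some reads cannot be assigned with certainty within the pair, as 16.0% of the 100-base windows of the Tnfrsf23 transcript also occur in Tnfrsf22. The lncRNA E230032D23Rik overlaps all 3 genes on the other strand and had 620 counts over all libraries, against 4851 for Tnfrsf22 alone. The strand setting of the counting is not given in the sources used here.

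**Figure D3:**
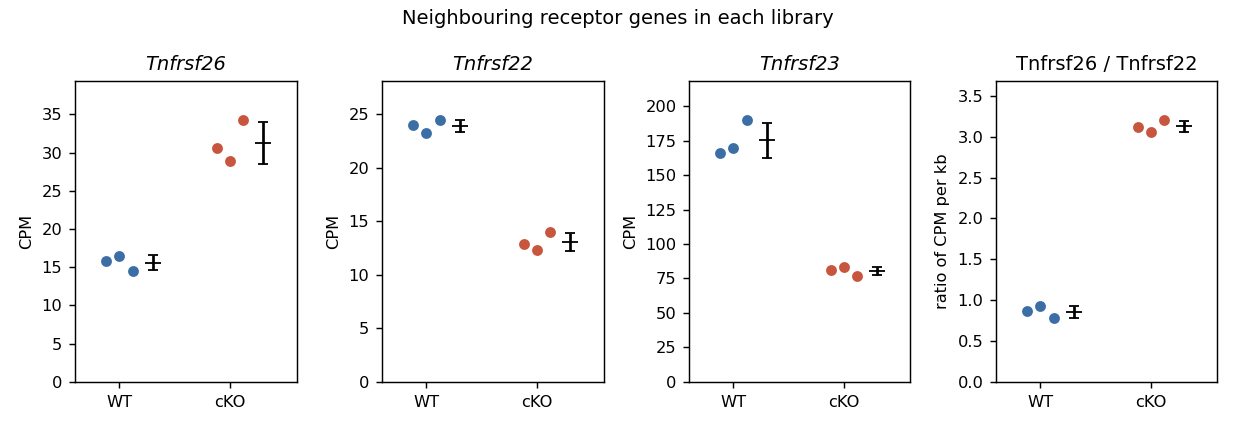
Level in CPM (y axes of the first panels, from 0) of Tnfrsf26, Tnfrsf22 and Tnfrsf23 in each library, and in the last panel the ratio of CPM per kb of Tnfrsf26 to Tnfrsf22, with mean ± SD (n = 3 per group). The ratio is 0.778 to 0.927 in WT and 3.06 to 3.20 in cKO.

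The 250 bases before the start of the Ensembl canonical transcript (GENCODE M39, GRCm39, shown in the direction of transcription) are given for these neighbors to show how alike the pair that fell and the gene that rose are in this stretch. Capitals mark the longest run that Tnfrsf22 and Tnfrsf23 have in common, 45 bases ending at position -56 of Tnfrsf22 and -83 of Tnfrsf23. In a global alignment, 213 of 250 bases (85.2%) were identical between Tnfrsf22 and Tnfrsf23, against 51.6% between Tnfrsf26 and Tnfrsf22 and 54.0% between Tnfrsf26 and Tnfrsf23, where the longest shared runs were 6 and 9 bases. The window of Tnfrsf26 (chr7:143181691-143181940) overlaps the first exon of E230032D23Rik on the other strand. The windows of Tnfrsf22 and Tnfrsf23 are chr7:143203409-143203658 and chr7:143239610-143239859. The likeness is a description of the sequence, and its part in the levels was not tested.
Tnfrsf26: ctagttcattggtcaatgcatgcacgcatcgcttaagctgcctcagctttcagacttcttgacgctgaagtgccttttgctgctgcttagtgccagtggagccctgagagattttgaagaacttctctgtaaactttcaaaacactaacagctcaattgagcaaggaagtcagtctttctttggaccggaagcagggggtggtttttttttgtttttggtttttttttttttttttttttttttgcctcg
Tnfrsf22: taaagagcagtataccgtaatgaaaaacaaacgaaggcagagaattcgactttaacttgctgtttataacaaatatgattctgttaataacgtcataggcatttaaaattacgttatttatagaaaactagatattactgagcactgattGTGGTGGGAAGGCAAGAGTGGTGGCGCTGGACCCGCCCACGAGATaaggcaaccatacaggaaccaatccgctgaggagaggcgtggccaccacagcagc
Tnfrsf23: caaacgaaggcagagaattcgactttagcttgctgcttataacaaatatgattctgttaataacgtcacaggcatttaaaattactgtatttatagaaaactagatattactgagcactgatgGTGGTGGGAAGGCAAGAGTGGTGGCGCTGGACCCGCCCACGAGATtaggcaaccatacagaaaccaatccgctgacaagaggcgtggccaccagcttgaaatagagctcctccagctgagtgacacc

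The remaining receptors, which costimulate lymphocytes, were not called or not tested. Tnfrsf9 had 12.7 ± 0.945 CPM in WT and 12.5 ± 0.520 CPM in cKO (SD, n = 3; log2 fold change -0.02, adjusted p = 0.880). Tnfrsf4, Tnfrsf18, Cd40 and Tnfrsf8 had mean levels of 0.422, 0.187, 0.183 and 0.0882 CPM per kb. Tnfrsf4, which encodes OX40, separated the groups but was not called, at a log2 fold change of 0.61 (SE 0.433, adjusted p = 0.296). Tnfrsf8, which encodes CD30, had 27, 26 and 10 counts in WT and 2, 2 and 16 in cKO. Its log2 fold change of -1.58 (SE 0.701) was not called (adjusted p = 0.0879), and without cKO replicate 3 it was called at -3.17 (adjusted p = 0.0102). Cd40 and Tnfrsf18 were not called, at -0.41 (adjusted p = 0.504) and -0.52 (adjusted p = 0.525). For Tnfrsf18 the opposite-strand lncRNA Gm16008 had 1238 counts against 76 of its own. Cd27, the receptor of CD70, had 0 to 6 counts per library and was not tested.

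**Figure D4:**
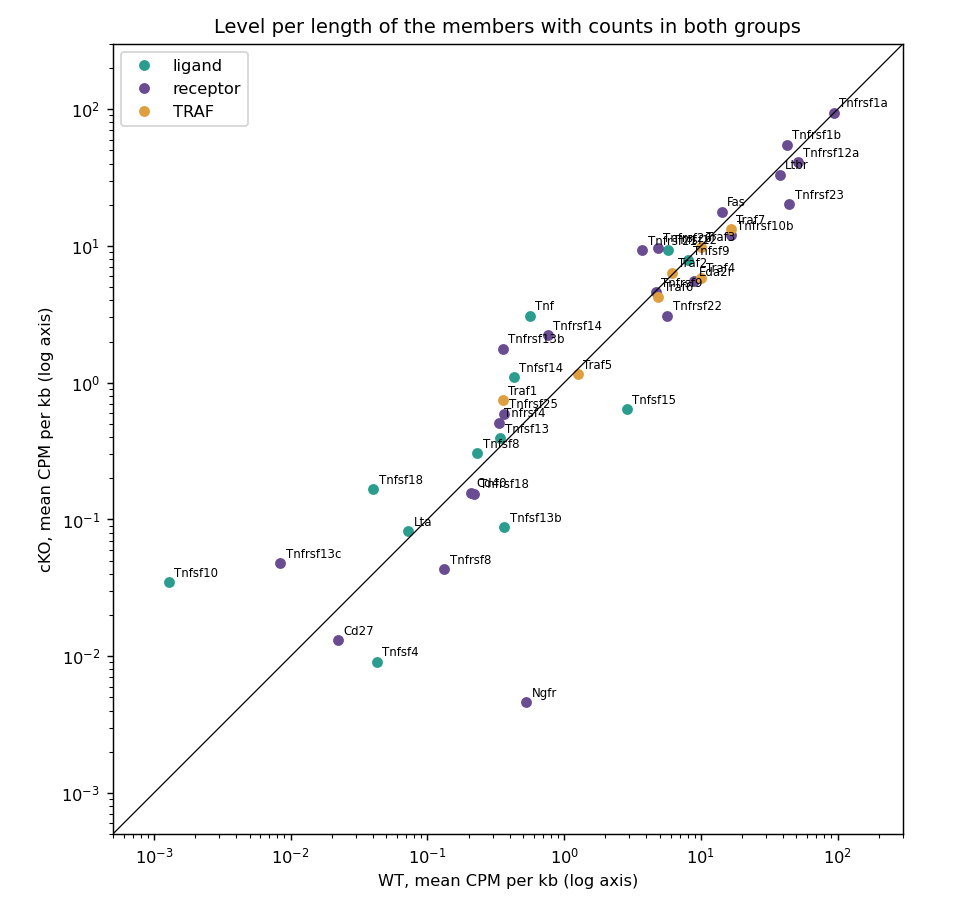
Mean CPM per kb in cKO (y axis) against WT (x axis), both on log axes, for the ligands, receptors and TRAFs with counts in both groups; the line marks equal levels. Tnfrsf1a lies highest and on the line at 93.9 and 94.3 CPM per kb, and Ngfr, Tnfsf15 and Tnfsf13b lie well below it.

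All 7 TRAFs were detected, with Traf7 the highest and Traf1 the lowest by the gene lengths of the deposited table. The rank of Traf1 depends on that length, which is 8819 bases, against 3436 for its canonical transcript. In CPM, Traf1 lay below Traf5 in WT (3.1 against 5.8) and above it in cKO (6.58 against 5.26). Of the 7 TRAFs, Traf1 was the only one called higher in the libraries labelled cKO, and Traf4, Traf7 and Traf6 were called lower. Traf1 encodes an adapter that NF-κB signaling is known to induce. It had 3.00, 2.70 and 3.74 CPM in WT and 6.89, 6.84 and 6.01 CPM in cKO, a log2 fold change of 1.07 (SE 0.169, adjusted p = 5.80e-05). Traf4, a TRAF found mostly in epithelial and mesenchymal cells, had 31.3, 28.8 and 39.0 CPM in WT and 19.0, 19.1 and 19.7 CPM in cKO, a log2 fold change of -0.78 (SE 0.0948, adjusted p = 3.10e-06). The groups of both genes were apart, in opposite directions.

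Traf7 encodes an atypical family member with WD repeats. It had 98.5, 88.8 and 104 CPM in WT and 82.7, 74.6 and 77.6 CPM in cKO, a log2 fold change of -0.31 (SE 0.0592, adjusted p = 3.94e-04), and 31.5% of its windows are shared with the adjoining genes Rab26 and Caskin1. Traf6, the adapter that Toll-like receptors and RANK share, fell by 0.20 on the log2 scale (SE 0.0643, adjusted p = 0.0200), from 38.4 ± 2.30 to 33.5 ± 1.19 CPM. This call was lost without WT replicate 2 (adjusted p = 0.0872), without cKO replicate 2 (0.0548) and without cKO replicate 3 (0.0972). Traf3, a brake on the noncanonical NF-κB pathway, had 73.1, 70.9 and 76.1 CPM in WT and 75.1, 72.9 and 70.1 CPM in cKO, and its log2 fold change of -0.01 (SE 0.0501) was not called (adjusted p = 0.865). Traf2, the main TRAF of TNF receptors, and Traf5 were not called either, at 0.05 (adjusted p = 0.617) and -0.14 (adjusted p = 0.523). By the deposited gene lengths, mean levels ran from 14.9 CPM per kb for Traf7 over 9.93 for Traf3 and 7.95 for Traf4 to 0.551 for Traf1.

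The upstream sequences were searched on both strands for the NF-κB consensus and for the AP-1 motif TGANTCA, since both factors act below these receptors. Of the 13636 tested protein-coding genes, 4.64% had an NF-κB match and 4.74% an AP-1 match in the 250 bases. Among the 35 tested members, 4 had the NF-κB consensus: Tnfsf15, which fell, and the uncalled Tnfrsf9, Cd40 and Tnfrsf8. None of the 10 members that rose had it. AP-1 was matched in 7, namely Tnfsf14, Fas and Traf1, which rose, Tnfsf13b and Traf6, which fell, and Tnfrsf9 and Tnfrsf8. A match is a description of the letters and not a binding site, and its absence says only that the letters are not in this window. The windows of the ligand with the NF-κB match, of a ligand and an adapter with AP-1 and of Tnf, which had neither, are given with the match in capitals. They are chr4:63663443-63663692 for Tnfsf15, chr17:57501178-57501427 for Tnfsf14, chr2:34848176-34848425 for Traf1 and chr17:35420984-35421233 for Tnf, all on the minus strand. The window of Traf1 also overlaps exons of noncoding Traf1 transcripts and of a lncRNA on the other strand.
Tnfsf15: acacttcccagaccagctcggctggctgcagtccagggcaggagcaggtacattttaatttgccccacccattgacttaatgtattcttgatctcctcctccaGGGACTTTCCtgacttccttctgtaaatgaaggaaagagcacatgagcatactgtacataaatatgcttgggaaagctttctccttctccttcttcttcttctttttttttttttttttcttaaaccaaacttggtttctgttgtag
Tnfsf14: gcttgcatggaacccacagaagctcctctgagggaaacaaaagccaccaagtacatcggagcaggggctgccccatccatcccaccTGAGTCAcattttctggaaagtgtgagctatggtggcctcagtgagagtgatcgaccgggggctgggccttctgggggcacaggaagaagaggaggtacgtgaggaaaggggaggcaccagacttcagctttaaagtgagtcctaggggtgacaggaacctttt
Traf1: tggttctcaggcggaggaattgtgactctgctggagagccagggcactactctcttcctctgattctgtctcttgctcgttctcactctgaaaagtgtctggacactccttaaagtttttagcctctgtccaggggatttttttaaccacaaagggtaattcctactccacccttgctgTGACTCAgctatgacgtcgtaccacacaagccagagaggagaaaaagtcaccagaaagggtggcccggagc
Tnf: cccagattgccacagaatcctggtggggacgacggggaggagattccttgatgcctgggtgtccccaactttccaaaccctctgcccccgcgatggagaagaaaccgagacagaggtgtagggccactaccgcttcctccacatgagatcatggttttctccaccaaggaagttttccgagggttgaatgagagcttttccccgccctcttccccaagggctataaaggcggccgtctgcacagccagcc

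Downstream of the receptors, the 35 adapters, kinases and regulators all passed the filter. Of them 15 were higher and 4 were lower, against 20.1% and 19.2% of all genes, and 16 were not called. With upper-quartile scaling, 11 were higher and 7 lower. Their median log2 fold change was 0.06. The changes were small, with only Map3k5 past 2-fold. Map3k5, which encodes the stress kinase ASK1, rose by 1.07 on the log2 scale (SE 0.118, adjusted p = 8.92e-07), from 5.56 ± 0.388 to 11.7 ± 0.359 CPM (SD, n = 3). Ikbkb, which encodes the kinase IKKβ of the canonical NF-κB pathway, rose by 0.51 (SE 0.0543, adjusted p = 5.43e-07), and Birc3, which encodes the ubiquitin ligase cIAP2, rose by 0.48 (SE 0.0565, adjusted p = 2.07e-06). Those lower by the smallest p were Nsmaf, an adapter of TNF receptor 1 (-0.23, adjusted p = 0.00848), the kinase gene Map3k7 (-0.15, adjusted p = 0.0135) and Tnfaip3, which encodes the inhibitor A20 (-0.15, adjusted p = 0.0334). The fourth was Tab3 (-0.25, adjusted p = 0.0337). The count of 4 lower genes ranged from 1 to 5 with 1 library left out, being 2 without WT replicate 1, 2 without cKO replicate 2 and 1 without cKO replicate 3.

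Of 7 genes that release ligands from the membrane or inhibit that release, 4 were higher and 1 was lower, against 20.1% and 19.2% of all genes. The sheddase gene Adam17, whose product cleaves TNF, had 92.1 ± 2.59 CPM in WT and 108 ± 6.15 CPM in cKO, a log2 fold change of 0.23 (SE 0.0506, adjusted p = 0.00165). Sppl2a, which encodes an intramembrane protease that cuts TNF further, rose by 0.36 (adjusted p = 1.78e-06), and Rhbdf2, a partner of Adam17, by 0.21 (adjusted p = 0.00795). Adam10 was the fourth. Timp3, which encodes an inhibitor of Adam17, fell by 0.76 (SE 0.0418, adjusted p = 7.78e-11), from 1779 ± 79.4 to 1048 ± 55.9 CPM.

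Of 6 related ligands, receptors and partners outside the symbol rule, Edar, which encodes the receptor of ectodysplasin A1, rose by 1.47 (SE 0.387, adjusted p = 0.00549) at a low level of 0.438 ± 0.111 against 1.22 ± 0.0716 CPM. Rell1 rose by 0.30 (adjusted p = 0.00382) and Relt fell by 0.30 (adjusted p = 0.0295). Eda, the gene of the ligands of Edar and Eda2r, was not called, at 5.35 ± 0.703 CPM in WT and 4.92 ± 0.513 CPM in cKO (adjusted p = 0.587).

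**Figure D5:**
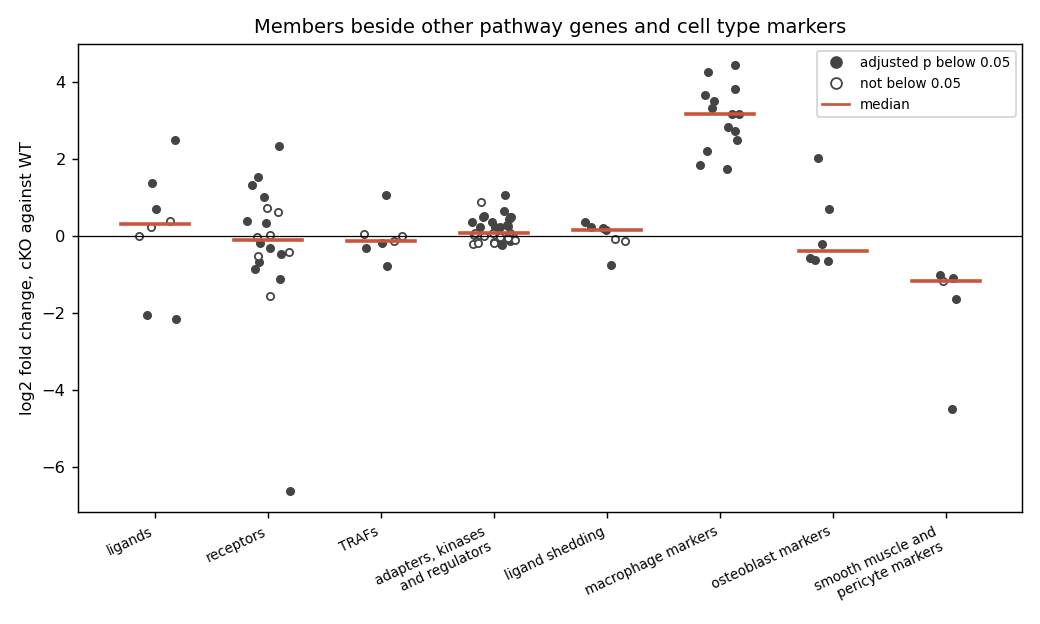
Log2 fold change of cKO against WT (y axis) of each tested gene in the member classes, the other pathway lists and 3 marker lists (x axis), with filled points for an adjusted p below 0.05 and a bar for the median. The macrophage markers lie between 1.73 and 4.42, while ligands, receptors and TRAFs spread on both sides of 0.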

How the data were processed

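Gene counts of RNA from 6 mouse libraries (3 WT, 3 cKO) were analyzed. The authors made the deposited raw counts with HISAT2 2.0.5 and featureCounts 1.55.0-p3 per the labels, on GRCm39 (the methods of the study name another featureCounts version and also RSEM). The library kit was directional, with paired reads of 150 bp; the strand and multi-mapping settings are not given in the sources used here. Even values made up 63.4% to 65.7% of counts from 1 to 10, so counts may not be independent, and counting intervals and floors cover counting error only.

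Groups were taken from the genotype labels. Genes were filtered with filterByExpr, scaled by TMM and tested with edgeR 4.0.16 (quasi-likelihood test, genotype only, R 4.3.3), with Benjamini-Hochberg adjustment over all 17146 genes tested and a threshold of 0.05. The study's methods also name edgeR. The SE is the absolute log2 fold change divided by the square root of F. CPM used TMM-scaled library sizes, and CPM per kb the gene length of the deposited table. DESeq2 1.42.0 and limma 3.58.1 served as alternatives. Data were simulated for this comparison on 17146 genes, of which 16824 passed the filter. Among those that passed, 65 of 95 genes changed by 1 on the log2 scale and 92 of 97 changed by 2 were called. So were 10 of 16632 unchanged genes. So some 2-fold changes can be missed.

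Sequences came from the GRCm39 genome and GENCODE M39, read with pysam 0.24.0, and were aligned with Biopython 1.88. All 47 members overlapped their GENCODE M39 gene on the same strand, but only 10 had the same start and end in the deposited table. The members, lists and tests were chosen with earlier results of these data known. Every member was named; values per library were given for members called at 2-fold or more and for the 3 highest per length of each class, and of each other pathway list the 3 higher and 3 lower called genes with the smallest p were named. Genes named beyond this rule were chosen after their values were seen. Alternatives were other tests, scalings and filters, halved counts, a replicate block and leaving out each library. Protein sequences were not used here.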

Additional observations from a re-analysis of the deposited data

How the results depend on the processing

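With each of 16 alternative settings, 10 to 11 members were higher and 11 to 13 lower, with 6 to 8 and 3 to 5 of them at 2-fold or more. Of the 22 called members, 21 kept their call and direction in every alternative that tested them. The exception was Traf6, whose adjusted p was 0.0872 without WT replicate 2, 0.0548 without cKO replicate 2 and 0.0972 without cKO replicate 3. Tnfrsf8 was called with limma-voom (adjusted p = 0.0386), with the edgeR exact test (0.0465) and without cKO replicate 3 (0.0102). Tnfrsf26, at the 2-fold limit, ran from 0.93 to 1.05. Without a filter, 45 members were tested, 11 higher and 13 lower. Adapter genes that were lower numbered 4, but 7 with upper-quartile factors, 2 with library size only and 1 to 5 with 1 library left out; those that were higher numbered 11 to 15. The cause was not tested.

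Reversed signs occurred only in uncalled members with log2 fold changes near 0. Tnfrsf1a was at -0.004821 with DESeq2, at -0.004766 with RLE factors and at -0.06299 with upper-quartile factors, where Traf2 was at -0.01975. With library size only, Tnfsf9 was at 0.004909 and Traf3 at 0.00885. With 1 library left out, Tnfsf9 ran from -0.1144 to 0.03499, Tnfrsf1a ran from -0.01942 to 0.02256, Tnfrsf9 ran from -0.09262 to 0.006317 and Traf3 ran from -0.04747 to 0.01348. The share of higher among all calls was 51.2%, and 39.5% with upper-quartile factors.

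Over all genes tested, same-numbered libraries did not deviate together from their group means (correlations -0.000976, -0.00385 and -0.0178). This gave no sign that the numbers pair the samples, but deviations from means of only 3 libraries cannot exclude it. With the replicate block, 10 members were higher and 12 lower, with 6 and 4 at 2-fold or more, and 14 adapter genes were higher and 4 lower. Depth limits the 12 untested members, all with few counts, and the ratios of Ngfr and Tnfsf10 to wide intervals.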
